A study of Mus musculus with 12 samples.

Results

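The transcripts described here encode the subunits of nuclear factor κB (NF-κB) and the proteins that hold it in check. They were chosen by name as 10 genes: the subunit genes Nfkb1, Nfkb2, Rel, Rela and Relb, the inhibitor genes Nfkbia, Nfkbib, Nfkbie and Nfkbiz, and Tnfaip3. All 10 were found among the 22243 genes of the table, and all 10 were among the 8780 genes whose TPM averaged 1 or more, the level set for testing. TPM, the abundance unit of the table, gives the share of a transcript among all transcripts after correction for length. Levels of different genes can thus be set side by side, with a limit. The table holds principal transcripts only, so TPM given to other transcripts of a gene is left out of its level.

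NF-κB is a family of dimeric transcription factors that switches on much of the inflammatory program of macrophages after Toll-like receptor 4 binds lipopolysaccharide (LPS). In resting cells the dimers are kept in the cytoplasm by IκB proteins, which the IκB kinase complex (IKK) marks for destruction. NF-κB then induces the genes of several of its own subunits and inhibitors, so that mRNA of this group reflects both the machinery and its feedback.

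The data were bulk poly(A) RNA sequencing of bone marrow-derived macrophages (BM-Mɸs) of C57Bl/6 background, grown with M-CSF from conditioned medium, and each library stands for 1 mouse. All 12 cultures were M1-activated first with IFN-γ (100 U/mL, 16 h) and next with LPS (100 ng/mL, 6 h), so there is no resting culture to compare with. The 6 libraries labelled ErbB4myeKO came from mice with floxed ErbB4 and LysMCre, which expresses Cre recombinase from the Lyz2 locus in myeloid cells, and the 6 labelled ErbB4FF came from littermates with floxed ErbB4 and no Cre. Each of 6 litters gave 1 library of each genotype, and the labels carry 1 batch letter per litter, so litter and batch cannot be told apart. The labels give neither the age nor the sex of the mice. In bulk RNA, fewer cells with a transcript and less of it per cell cannot be told apart.

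Genotype and cell identity were checked first. Erbb4 lay between 0.280 and 0.852 TPM in libraries labelled ErbB4myeKO and between 0.372 and 0.716 TPM in those labelled ErbB4FF, so the groups overlapped. Its median was 0.623 TPM in ErbB4myeKO and 0.404 TPM in ErbB4FF, and thus not lower in the group with the deletion. The value covers the whole transcript and not only the floxed part, so it is no direct check of the deletion. All 8 macrophage markers and all 10 M1 activation markers averaged 1 TPM or more, although Nos2, which encodes inducible nitric oxide synthase, was listed at 0 in some libraries and reached 139 TPM in others. TPM carry no read depth of a single library, and the study states only 1 approximate depth for all samples. Between 10214 and 12985 genes were above 0 TPM. The libraries of litter 3 were the lowest, at 10214 (ErbB4myeKO) and 10910 (ErbB4FF), and the next lowest library had 11645.

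The litters were not alike. The summed level of 4 Y-linked genes (Ddx3y, Uty, Kdm5d and Eif2s3y) was between 36.1 and 49.2 TPM in the 8 libraries of litters 1 to 4 and between 0.202 and 0.406 TPM in the 4 libraries of litters 5 and 6. A difference between litters 1 to 4 and litters 5 and 6 is therefore also a difference in Y-linked expression, and litter, batch letter and Y-linked level cannot be told apart in it. Litter 5 also stood apart in the table itself, as its deposited principal transcripts held 71.4% and 74.7% of all TPM of the library, against 58.98% to 64.9% in the other 10 libraries. Its part in the levels below was not tested. Both genotypes of a litter were on the same side of the Y-linked step, so the comparison of littermates is balanced for it.

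Several of these genes are known NF-κB targets, and the letters that NF-κB dimers bind can be read in their promoters. Windows from 250 bases before to 50 bases after a RefSeq transcription start (GRCm38.p6) were found for 7 of the 10 genes, in 10 windows. No window was found for Nfkb1, Relb and Nfkbiz. The degenerate kappa-B consensus of 10 bases, searched on both strands, occurred in windows of 5 of the 7 genes (Nfkb2, Rel, Nfkbia, Nfkbie and Tnfaip3), and in 7 of the 10 windows, against 8.46% of all 32851 windows. The stricter letters GGGA, then 2 bases of any kind, then TTCC, all of whose matches also match the consensus, occurred for Nfkb2 and Nfkbia, in 3 of the 10 windows, against 1.47% of all windows. Neither Rela nor Nfkbib had a match. The stretches below are shown because they let the genes be compared base by base. They are written 5′ to 3′ on the strand of the gene with matching bases in capitals, and a match describes letters, not a bound site.
Nfkbia, chr12:55492657-55492686, minus strand: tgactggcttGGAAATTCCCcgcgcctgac
Nfkb2, chr19:46305695-46305724, plus strand: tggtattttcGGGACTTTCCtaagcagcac
Nfkb2, chr19:46304689-46304718, plus strand: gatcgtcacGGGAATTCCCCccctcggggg
Rel, chr11:23771041-23771070, minus strand: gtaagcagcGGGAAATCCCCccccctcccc
Nfkbie, chr17:45555584-45555613, plus strand: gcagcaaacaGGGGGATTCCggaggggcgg
Tnfaip3, chr10:19015403-19015432, minus strand: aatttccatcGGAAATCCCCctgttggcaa
In the Nfkb2 line of chr19:46304689-46304718 and in the Rel line, a forward and a reverse match overlap by all but 1 base and are drawn as 1 run. Nfkb2 held 4 separate stretches over its 3 windows, 2 of which overlap, and Tnfaip3 held 2, while Rel, Nfkbia and Nfkbie each held 1.

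The 10 genes were well expressed after M1 activation. By the median over the 12 libraries, the order ran from Nfkbia at 850 TPM through Tnfaip3 at 409, Nfkbie at 310, Nfkbib at 302, Nfkb2 at 301, Nfkb1 at 242, Nfkbiz at 147, Rela at 108 and Relb at 55.2 to Rel at 51.2 TPM. Nfkbia was the 109th most abundant of the 8780 genes and Rel the 1476th. An inhibitor, IκBα, thus had the highest median. The lowest place was not settled, as Relb stood above Rel in 4 of 6 litters (exact permutation p = 0.344) and below it in litters 3 and 4 (43.2 against 67.2 and 44.96 against 54.0 TPM). Between neighbours in this order, Nfkbia stood above Tnfaip3 and Rela above Relb in 6 of 6 litters (exact permutation p = 0.0312 for each, the smallest that 6 litters allow). Adjusted over the 9 pairs of neighbours, no pair passed the threshold of 0.05 (smallest adjusted p = 0.141, exact permutation), where the fewness of litters keeps a pair at the smallest p from passing unless most pairs do. The log2 step was 1.25 ± 0.52 (SD, n = 6) from Tnfaip3 to Nfkbia and 0.89 ± 0.44 from Relb to Rela. Tnfaip3, Nfkbie, Nfkbib and Nfkb2 lay close together, and Nfkbie was the higher of Nfkbie and Nfkbib in only 2 of 6 litters.

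**Figure D1:**
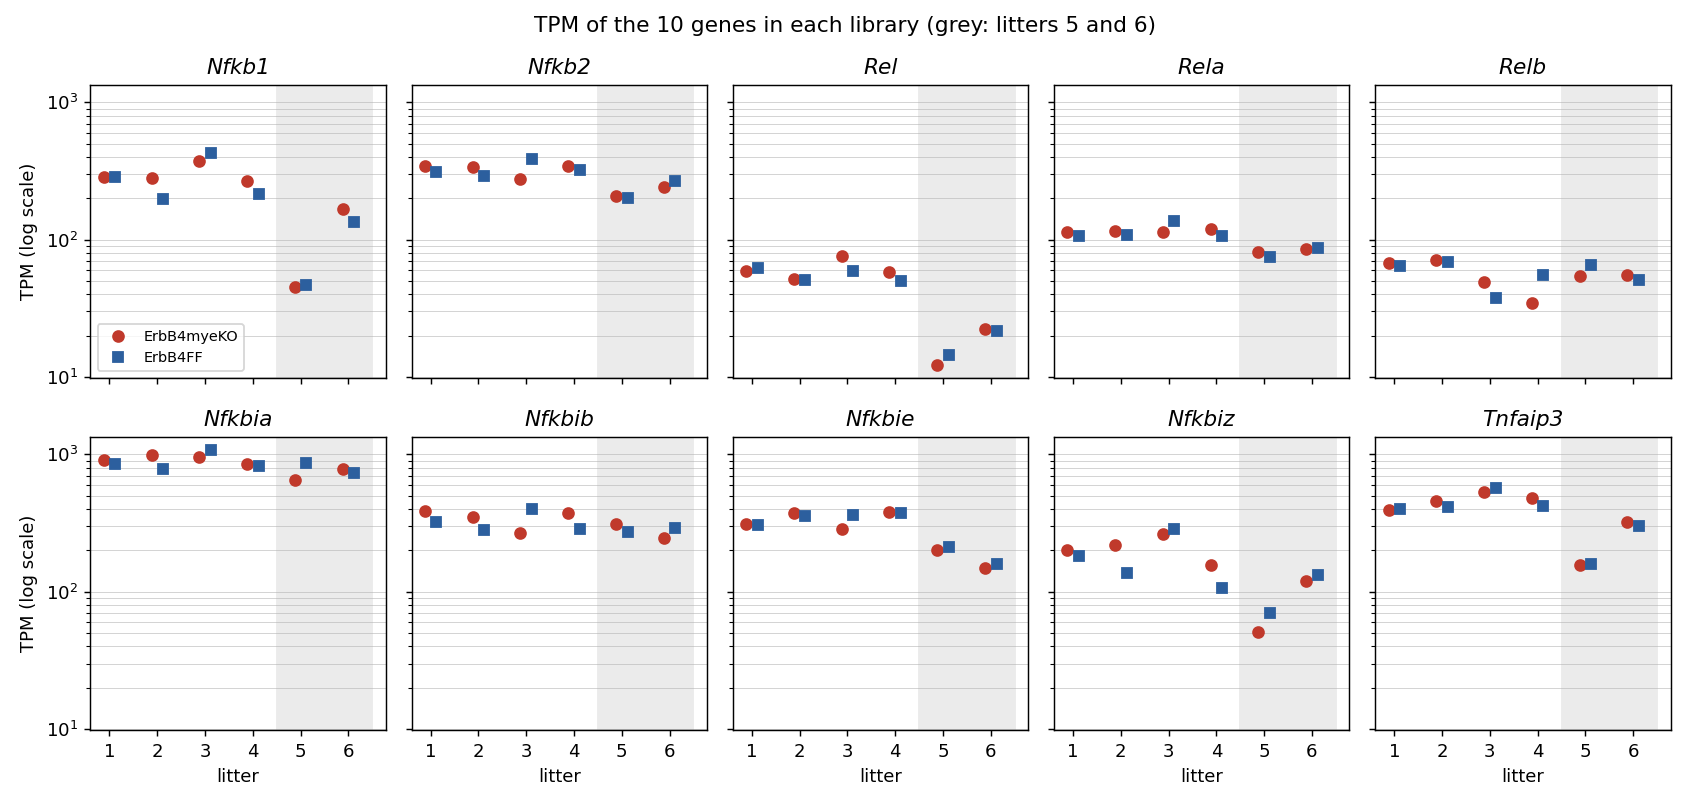
TPM of the 10 genes (vertical log axis) in each of 6 litters (horizontal axis), with a red circle for the ErbB4myeKO and a blue square for the ErbB4FF littermate; litters 5 and 6 are shaded. Littermates lie close together for Tnfaip3 but apart in places for other genes, as for Relb in litter 4 (34.6 and 55.3 TPM) and Nfkbib in litter 3 (270 and 400 TPM). Nfkb1 and Rel drop in litters 5 and 6 in both genotypes, and Nfkbia stays between 646 and 1071 TPM.

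The main comparison asked whether deletion of ErbB4 in myeloid cells changed the level of these transcripts. None of the 10 passed the test for genotype. In limma with litter as a block, 0 of 10 passed an adjusted p of 0.05, as did 0% of the 8780 genes (smallest adjusted p among the 10, 0.660, Nfkb1). At an unadjusted p under 0.05 there were also 0 of 10, against 8.21% of all genes, and the smallest was 0.167. The groups overlapped for all 10 genes, where 0.0456% of all genes did not overlap. None of the 10 moved in the same direction in all 6 litters, as 4.82% of all genes did.

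Among the subunits, Nfkb1, which encodes p105 and its processed form p50, had a lowest, median and highest level of 45.01, 274 and 376 TPM in libraries labelled ErbB4myeKO and of 47.0, 206 and 425 TPM in those labelled ErbB4FF. The lowest library of both groups was the one from litter 5. Its mean log2 ratio was 0.15 ± 0.27 (SD, n = 6 litters; exact permutation p = 0.219), higher in the ErbB4myeKO littermate in 4 of 6 litters. The 95% interval ran from -5.41% to 30.8%.

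Rela encodes p65, the transactivating partner of p50 in the canonical dimer. It lay at 81.8, 113 and 120 TPM (lowest, median, highest) in libraries labelled ErbB4myeKO and at 75.4, 106 and 136 TPM in those labelled ErbB4FF. The ErbB4FF range reached past the ErbB4myeKO range at both ends, and the mean log2 ratio was 0.028 ± 0.16 (SD, n = 6; exact permutation p = 0.75). Rel encodes c-Rel, the subunit linked to Il12b induction in macrophages. It lay at 12.3, 54.9 and 75.8 TPM in libraries labelled ErbB4myeKO and at 14.5, 50.3 and 61.9 TPM in those labelled ErbB4FF, and its mean log2 ratio was 0.063 ± 0.21 (SD, n = 6; exact permutation p = 0.5).

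Nfkb2 and Relb carry the non-canonical arm, and neither passed. Nfkb2, which encodes p100 and p52, lay at 208, 306 and 343 TPM in libraries labelled ErbB4myeKO and at 201, 301 and 390 TPM in those labelled ErbB4FF. Its mean log2 ratio was -0.026 ± 0.26 (SD, n = 6; exact permutation p = 0.875). It was higher in the ErbB4myeKO littermate in 4 of 6 litters, with litter 3 at -0.50, and without that litter the mean log2 ratio was 0.068. Relb, the usual partner of p52, lay at 34.6, 54.8 and 71.2 TPM against 37.5, 59.9 and 69.0 TPM, and its mean log2 ratio was -0.058 ± 0.36 (SD, n = 6; exact permutation p = 0.75). In litter 4 Relb was at 34.6 TPM in the ErbB4myeKO and 55.3 TPM in the ErbB4FF littermate, and without that litter the mean log2 ratio was 0.064.

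Nfkbia, which encodes IκBα, the inhibitor that NF-κB induces most directly, lay at 646, 881 and 995 TPM in libraries labelled ErbB4myeKO and at 733, 840 and 1071 TPM in those labelled ErbB4FF. The mean log2 ratio was -0.0026 ± 0.27 (SD, n = 6; exact permutation p = 1), and the 95% interval ran from 0.851-fold to 1.17-fold. Nfkbib (IκBβ, a second inhibitor of Rela and c-Rel dimers) lay at 248, 332 and 389 TPM against 274, 289 and 400 TPM. Its mean log2 ratio was 0.058 ± 0.38 (SD, n = 6; exact permutation p = 0.688), with litter 3 at -0.56 and the other litters between -0.24 and 0.38. Nfkbie (IκBε) lay at 149, 299 and 383 TPM against 161, 331 and 374 TPM, with a mean log2 ratio of -0.063 ± 0.16 (SD, n = 6; exact permutation p = 0.469).

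Nfkbiz encodes IκBζ, a nuclear IκB that acts with p50 on secondary response genes such as Il6. It lay at 51.0, 178 and 265 TPM in libraries labelled ErbB4myeKO and at 70.0, 134 and 288 TPM in those labelled ErbB4FF. Its mean log2 ratio of 0.11 ± 0.44 (SD, n = 6; exact permutation p = 0.594) had the largest SD of the 10 genes, with litters 2 and 4 at 0.68 and 0.56 and litter 5 at -0.45. The 95% interval ran from -15.8% to 38.2%. Tnfaip3 encodes A20, a ubiquitin-editing enzyme that shuts off signaling upstream of IKK. It lay at 156, 426 and 531 TPM against 159, 409 and 568 TPM. Its mean log2 ratio of 0.047 ± 0.11 (SD, n = 6; exact permutation p = 0.375) had the smallest SD of the 10, and the 95% interval ran from -6.05% to 13.6%.

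**Figure D2:**
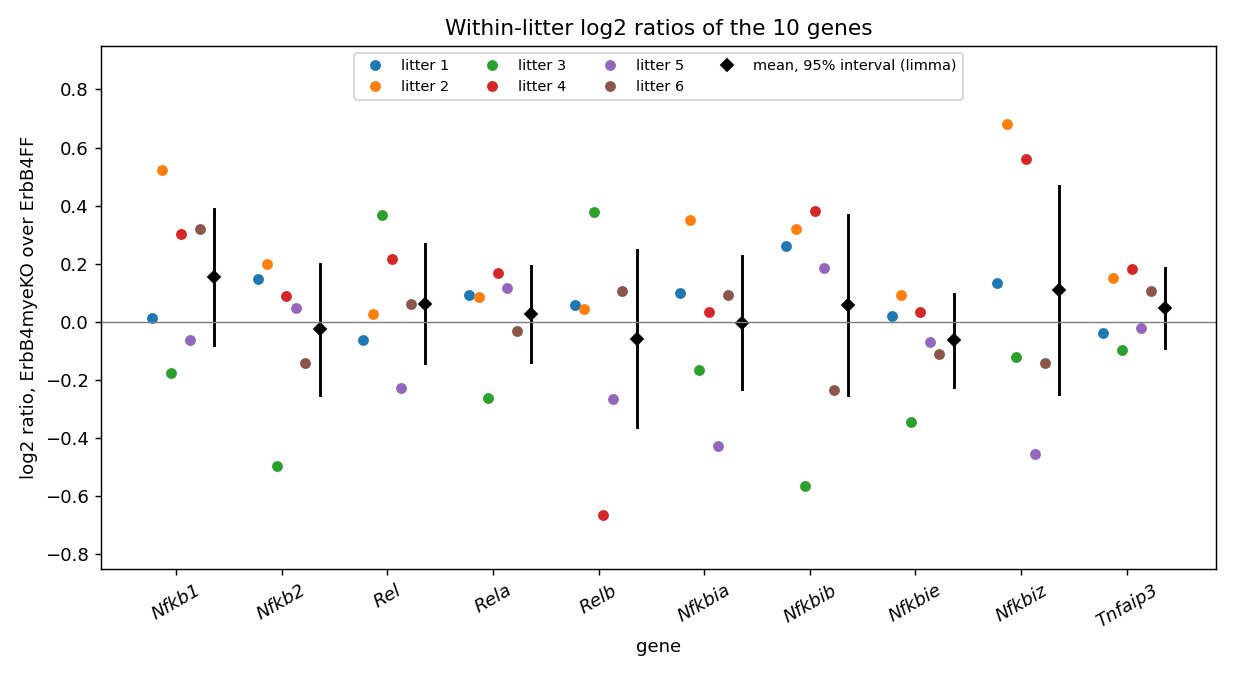
Within-litter log2 ratio of TPM (each value with 0.5 added), ErbB4myeKO over ErbB4FF (vertical axis), for each gene (horizontal axis), with a colored point per litter and a black diamond and bar for the limma mean and 95% interval. Every interval spans 0, and the mean ratios run from -0.063 to 0.15.

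The genotype effect was also fitted apart in litters 1 to 4 and in litters 5 and 6. An unadjusted p under 0.05 in limma was reached by 0 of the 10 genes in litters 1 to 4, against 8.53% of all genes, and by 0 of the 10 in litters 5 and 6, against 3.29%. The difference between both effects passed an unadjusted p of 0.05 in 0 of 10 genes, against 4.17% of all genes (smallest adjusted p among the 10, 0.999, limma). It was greatest for Nfkbiz, whose log2 ratio was 0.31 in litters 1 to 4 and -0.30 in litters 5 and 6 (difference -0.61 ± 0.26 SE, unadjusted p = 0.0503 and adjusted p = 0.999 in limma).

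What did differ was the litter. In an F test of the litter terms of the same limma fit, chosen after the values were seen, 7 of the 10 genes passed an adjusted p of 0.05, against 44.9% of all genes. Of genes averaging 5 TPM or more, as all 10 do, 57% passed. The adjusted p was 0.000363 for Nfkb1, Rel and Tnfaip3, 0.00107 for Nfkbie, 0.0053 for Nfkbiz, 0.018 for Rela and 0.043 for Nfkb2. The call of Nfkb2 was lost with no filter on low values (adjusted p = 0.0851, limma), without trend (0.0806), with the most abundant transcript alone (0.342) and without litter 1, 4, 5 or 6 (0.0557 to 0.411). It was 0.107 for Relb, 0.287 for Nfkbia and 0.649 for Nfkbib. Without litter 5, the 4 genes Nfkb1, Rel, Nfkbie and Tnfaip3 passed, and the share of all genes fell to 11.5%. These p-values compare the litters sequenced here, with littermates as the replicates.

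The litter terms were then taken apart. Among litters 1 to 4, 0 of the 10 genes passed an adjusted p of 0.05 (limma F test), against 4.34% of all genes. For litters 5 and 6 against litters 1 to 4, 7 of 10 passed (limma), all lower, where 22.9% of all genes passed and were lower. The log2 difference was -1.76 ± 0.11 (SE) for Nfkb1 (adjusted p = 4.68e-05, limma), -1.72 ± 0.093 for Rel, -1.09 ± 0.16 for Nfkbiz, -1.04 ± 0.062 for Tnfaip3, -0.93 ± 0.073 for Nfkbie, -0.51 ± 0.10 for Nfkb2 and -0.47 ± 0.075 for Rela. In every contrast of litters given here and below, SE and p rest on differences between littermates. They leave out the spread among litters, so they hold for the litters sequenced here and not for litters in general. Nfkb2 did not pass with the most abundant transcript alone, and neither Nfkb2 nor Nfkbiz passed without litter 5. The median over all 8780 genes was 0.086, so the fall was not shared by the typical gene. Nfkbia at -0.26 ± 0.10, Nfkbib at -0.24 ± 0.14 and Relb at 0.055 ± 0.14 did not pass (adjusted p = 0.0766, 0.199 and 0.761, limma).

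The TPM of Nfkb1 in litter 5 was 45.01 in the ErbB4myeKO and 47.0 in the ErbB4FF littermate, and in litter 6 it was 168 and 134, against 196 to 425 in litters 1 to 4. The median of litters 1 to 4 was 6.15-fold the mean of litter 5 and 1.88-fold that of litter 6. Rel was at 12.3 and 14.5 TPM in litter 5 and at 22.5 and 21.5 TPM in litter 6, against 49.97 to 75.8 in litters 1 to 4, a 4.37-fold and a 2.66-fold step. Every library of litters 5 and 6 lay below every library of litters 1 to 4 for both genes.

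Tnfaip3 was at 156 and 159 TPM in litter 5 and at 324 and 301 in litter 6, against 391 to 568 in litters 1 to 4. Nfkbiz was at 51.0 and 70.0 TPM in litter 5, below all other libraries, but at 119 and 132 in litter 6, inside the range of 106 to 288 of litters 1 to 4. Nfkbie took another order, with its lowest level in litter 6 (149 and 161 TPM), then litter 5 (203 and 213 TPM), against 285 to 383 in litters 1 to 4. Between litters 5 and 6, 5 of the 10 genes passed an adjusted p of 0.05 (limma), against 22.9% of all genes. Nfkb1 (-1.69 ± 0.17 SE), Nfkbiz (-1.06 ± 0.27), Tnfaip3 (-0.99 ± 0.10) and Rel (-0.70 ± 0.15) were lower in litter 5, while Nfkbie was higher (0.43 ± 0.12), all on the log2 scale.

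**Figure D3:**
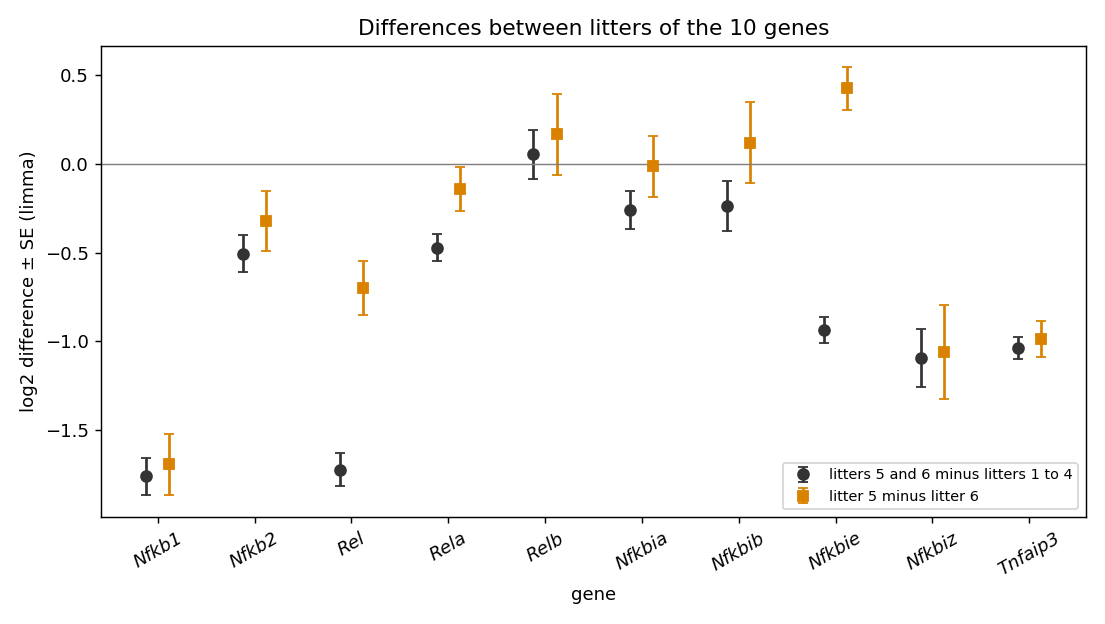
Log2 difference in TPM with 0.5 added (vertical axis, ± SE from limma) for each gene (horizontal axis), between litters 5 and 6 and litters 1 to 4 (black circles) and between litter 5 and litter 6 (orange squares). The SE rests on differences between littermates and leaves out the spread among litters. Nfkb1 and Rel are lowest in the first contrast, at -1.76 and -1.72, Relb lies at 0.055, and Nfkbie alone of the 5 genes that passed the second contrast lies above 0.

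The abundant inhibitor Nfkbia had a 1.34-fold range of litter means. It lay at 646 and 869 TPM in litter 5 and at 781 and 733 TPM in litter 6, against 781 to 1071 TPM in litters 1 to 4, so the ranges overlapped. Nfkbib and Relb overlapped as well. Both libraries of litter 5 lay below the other 10 libraries for 6 of the 10 genes (Nfkb1, Nfkb2, Rel, Rela, Nfkbiz and Tnfaip3), against 19.9% of all genes.

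Set against the difference between littermates, the spread between litters was wide for 4 genes. The SD of litter means was 7.91 times the SD within litters for Tnfaip3, 6.28 times for Rel, 5.75 times for Nfkb1 and 4.65 times for Nfkbie, on log2 values, while the median over all genes was 1.55. For Nfkbia and Nfkbib the ratio was 0.86 and 0.527. The mean of a pair varies less than a single library, so these ratios set genes side by side and a ratio under 1 does not mean that littermates differed more than litters.

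**Figure D4:**
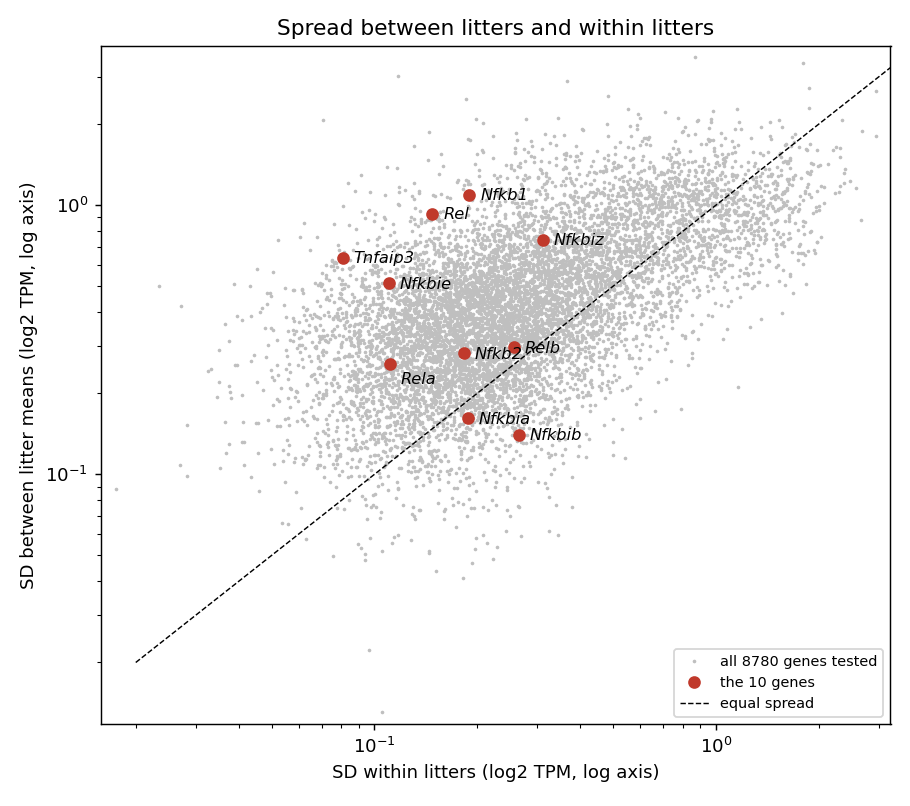
SD of log2 TPM between litter means (vertical log axis) against SD within litters (horizontal log axis) for 8780 genes in grey and the 10 genes in red, with a dashed line where both SDs are equal. Tnfaip3, Rel, Nfkb1 and Nfkbie lie far above the line, with ratios from 4.65 to 7.91, and Nfkbia and Nfkbib lie below it.

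The unequal steps altered the make-up of the subunit transcripts. In litters 1 to 4, Nfkb1 held 27.4% to 42.2% of the summed TPM of the 5 subunit genes and Nfkb2 31.001% to 42.8%. In litter 5, Nfkb1 held 11.2% and 11.7% and Nfkb2 51.8% and 49.8%, in the ErbB4myeKO and ErbB4FF littermate in that order. In litter 6 the shares were 29.2% and 23.9% for Nfkb1 and 42.3% and 47.6% for Nfkb2. The ratio of Nfkb2 to Nfkb1, the precursors of p52 and p50, was thus 4.27 to 4.61 in litter 5, 1.45 to 1.996 in litter 6 and 0.734 to 1.49 in litters 1 to 4.

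The share of Rel was 3.06% to 3.59% in litter 5 and 3.82% to 3.92% in litter 6, against 5.60% to 8.51% in litters 1 to 4, while that of Relb was 13.6% to 16.3% in litter 5. The summed subunit level was 401 and 403 TPM in litter 5 and 563 to 574 TPM in litter 6, against 717 to 1047 TPM in litters 1 to 4. The 3 cytoplasmic inhibitors Nfkbia, Nfkbib and Nfkbie together held 2.89 to 3.36 times the subunit TPM in litter 5, 2.05 to 2.11 times in litter 6 and 1.70 to 2.02 times in litters 1 to 4. These shares are descriptions of the deposited principal transcripts and say nothing of protein.

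**Figure D5:**
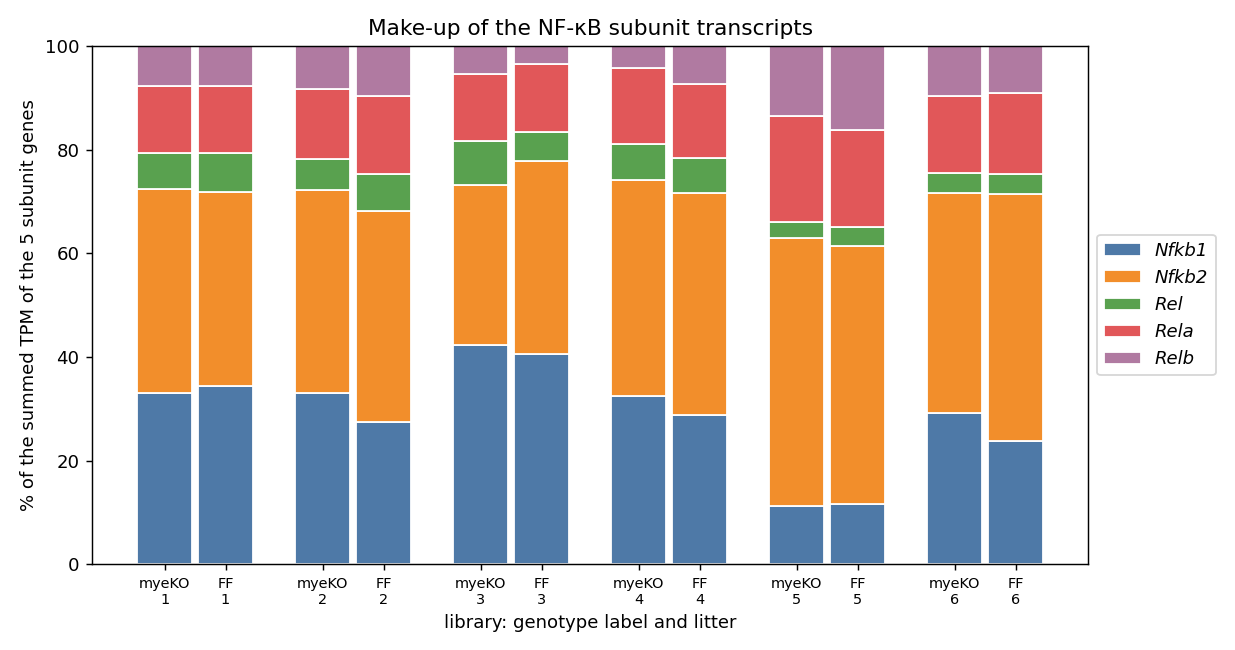
Share of the summed TPM of Nfkb1, Nfkb2, Rel, Rela and Relb (vertical axis, percent) in each of the 12 libraries (horizontal axis, by genotype label and litter). The blue Nfkb1 band is 11.2% and 11.7% in litter 5 and 23.9% to 42.2% in the other libraries.

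Marker genes also differed between these litters. Of 12 neutrophil markers, 5 averaged 1 TPM or more, and the summed level of the 12 was 41.3 to 74.5 TPM in litters 1 to 4, 186 to 216 in litter 5 and 155 to 375 in litter 6. Of the 5 tested, 4 were higher and 0 lower in litters 5 and 6 at an adjusted p under 0.05 (limma; median log2 difference 1.81). By that test 2166 of all 8780 genes were higher and 2013 lower, which stands beside each such count of markers here. The defining marker Ly6g stayed at or below 0.448 TPM. Mpo was at 0.215 and 0.549 TPM in litter 5 and at 0.238 and 0.0981 TPM in litter 6, against at most 0.134 TPM in litters 1 to 4. Mertk, a receptor of mature macrophages for dying cells, was at 134 to 175 TPM in litters 1 to 4, at 36.02 and 35.4 TPM in litter 5 and at 63.1 and 45.4 TPM in litter 6. Csf1r, the M-CSF receptor, was at 200 and 168 TPM in litter 5 and at 319 and 329 TPM in litter 6, against 298 to 473 TPM in litters 1 to 4. Cd14, the LPS co-receptor, was at 952 and 1130 TPM in litter 5 and at 2664 and 2091 TPM in litter 6, against 2151 to 5279 TPM. Not all genes of the macrophage list were low in litter 5. Lyz2 was at 7563 and 13257 TPM there, against 3116 to 10336.5 TPM in litters 1 to 4. Cd68 (418 and 338 TPM) and Fcgr1 (220 and 250 TPM) lay inside their ranges of litters 1 to 4. Adgre1 (686 and 662 TPM) lay below its range of 848 to 1033 TPM. The sums of the macrophage list overlapped, at 10165 to 15964 TPM in litter 5 and 7179 to 12521 TPM in litter 6 against 8417 to 14953 TPM in litters 1 to 4. In litters 5 and 6 against litters 1 to 4, 3 of its 8 genes were lower and 1 higher at an adjusted p under 0.05 (limma). Of the 10 M1 activation markers, 8 were lower and 0 higher by the same test (median log2 difference -0.57), and their sum was 11821 to 12152 TPM in litter 5 and 9058 to 10341 TPM in litter 6 against 10418 to 27763 TPM in litters 1 to 4. For litter 5 alone the median log2 difference was -0.18. Cxcl10 was at 3256 and 3448 TPM there and at 1333 and 1744 TPM in litter 6, against 1918 to 2952 TPM. Irf1 was at 624 and 587 TPM in litter 5 and at 211 and 253 TPM in litter 6, against 486 to 639 TPM. Il12b was at 417 and 405 TPM in litter 5, below the 639 to 8894 TPM of litters 1 to 4. Of the 10 proliferation markers tested, 6 were higher and 1 lower in litters 5 and 6 against litters 1 to 4 (limma; median log2 difference 0.76), while the sum of all 12 was 232 to 235 TPM in litter 5 and 189 to 232 TPM in litter 6 against 132 to 251 TPM in litters 1 to 4. Summed lymphocyte and erythroid markers reached at most 3.65 and 1.11 TPM in any library. The part of these differences, and of the Y-linked level, in the levels of Nfkb1, Rel, Nfkbie, Nfkbiz and Tnfaip3 was not tested.

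The rest of the pathway was read from fixed lists. Of the genes tested by genotype, 0 of 11 in the list of the IKK complex and its upstream kinases and 0 of 14 adaptors and E3 ligases reached an unadjusted p of 0.05 in limma. None of any list passed the adjusted p of 0.05 (smallest 0.603, limma). Among 14 partners of A20, deubiquitinases and other brakes, 4 were lower and 0 higher at an unadjusted p under 0.05, where 4.38% of all genes were lower and 3.83% higher. Tnip2, which encodes an A20-binding protein, lay at 10.3, 16.2 and 18.1 TPM (lowest, median, highest) in libraries labelled ErbB4myeKO and at 13.9, 20.1 and 23.7 TPM in those labelled ErbB4FF. It was lower in the ErbB4myeKO littermate in 6 of 6 litters, with a log2 ratio of -0.32 ± 0.096 (SE; adjusted p = 0.603, limma). Otulin, which encodes a deubiquitinase of linear ubiquitin chains, was lower in 5 of 6 litters with a log2 ratio of -0.29 ± 0.11 (SE; adjusted p = 0.603, limma).

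Of the 3 other IκB family genes, Bcl3, which encodes a nuclear IκB that pairs with p50 and p52, had a log2 ratio of -0.32 ± 0.12 (SE; adjusted p = 0.603, limma) and was lower in 5 of 6 litters. Among 10 coactivators and modifiers, 1 was lower at an unadjusted p under 0.05, namely Sirt1, a deacetylase of p65, which lay between 0 and 3.64 TPM (log2 ratio -0.90 ± 0.38 SE; adjusted p = 0.603, limma).

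Of 36 NF-κB target genes, 8 were higher and 2 lower at an unadjusted p under 0.05, beside 3.83% and 4.38% of all genes, with 0 past the adjusted p, and their median log2 ratio was 0.20 beside -0.00068 for all genes. Cxcl1, a neutrophil-attracting chemokine, was at 108, 405 and 1323 TPM (lowest, median, highest) in libraries labelled ErbB4myeKO and at 40.4, 134 and 1128 TPM in those labelled ErbB4FF. It was higher in 6 of 6 litters, with a log2 ratio of 1.14 ± 0.39 (SE; adjusted p = 0.603, limma). With each litter left out in turn, that ratio ran from 0.71 to 1.32. Csf1, which encodes M-CSF, had a log2 ratio of 0.80 ± 0.26 (SE; adjusted p = 0.603, limma), higher in 4 of 6 litters. Cxcl10, a chemokine that interferon also induces, was lower in 6 of 6 litters (-0.18 ± 0.061 SE; adjusted p = 0.603, limma) and Saa3, an acute-phase gene, in 5 of 6 (-0.35 ± 0.13 SE; adjusted p = 0.603, limma).

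Of the 37 marker genes tested, 6 (16.2%) reached an unadjusted p under 0.05 for genotype, beside 8.21% of all genes, Cxcl10 above among them, and 0 the adjusted p (0.603 for each, limma). Fcgr1, an Fc receptor of the macrophage list, was lower in 6 of 6 litters (log2 ratio -0.86 ± 0.25 SE). Il12b, of the M1 and the target list, was higher in 6 of 6 (1.19 ± 0.47 SE, and 0.75 to 1.42 with a litter left out). Camp, of the neutrophil list, was also higher in 6 of 6 (0.45 ± 0.18 SE). In the dendritic cell and proliferation lists, Xcr1 (0.63 ± 0.23 SE) and Mki67 (0.42 ± 0.14 SE) were each higher in 5 of 6. Their part in the values of the target genes was not tested.

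The same lists were read for the litter contrast. For litters 5 and 6 against litters 1 to 4, 6 of 11 genes of the IKK list, 7 of 14 adaptors and E3 ligases, 6 of 14 partners of A20 and brakes, 5 of 10 coactivators and 17 of 36 targets passed the adjusted p of 0.05 (limma) and were lower. In the same order 1, 0, 1, 3 and 7 were higher. Of the 3 other IκB family genes, 0 were lower and 1 higher, with a median log2 difference of 0.18. Of all 8780 genes, 2013 were lower and 2166 higher. The median log2 difference was -0.70 in the IKK list, -0.60 in the adaptors and -0.54 in the targets, beside 0.086 for all genes.

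The 10 genes rest on 15 deposited transcripts. Rel, Rela, Relb, Nfkbia and Nfkbie each had 1, and the second transcript of Nfkbiz stayed near 0. Rel has 1 annotated transcript, while Rela has 7, Relb 10 and Nfkbie 3. Of the 31-base words of their deposited transcript, 71.8%, 100% and 99.5% in that order also occur in other transcripts of the gene. TPM given to those other transcripts is not counted here, which limits the order of levels and the subunit shares. The longer deposited transcript of Nfkb1 (ENSMUST00000029812) held 21.3% to 48.4% of the gene's TPM, and 99.76% and 99.95% of the 31-base words of the pair also occur in other transcripts of Nfkb1, so kallisto could trade TPM between them. Both had a litter adjusted p under 0.05 (0.00247 and 0.00206, limma). Of the Nfkb2 transcripts, ENSMUST00000111881 held 9.82% to 11.8% of the gene's TPM in litter 5, at the low end of 9.82% to 29.6% over all libraries. It had a log2 ratio of -0.19 ± 0.089 (SE; unadjusted p = 0.0701 and adjusted p = 0.685, limma) and a litter adjusted p of 0.0014, where the other transcript had a litter adjusted p of 0.368. For Tnfaip3, ENSMUST00000105527 held 86.3% to 99.1% of the TPM.

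Whether 2 of the genes shifted together between littermates was asked by correlating their within-litter log2 ratios over the 6 litters. Of 45 pairs, 33 had a positive Pearson r, 9 had an unadjusted exact permutation p under 0.05, and 0 passed after adjustment over the 45 (smallest adjusted p = 0.0938). Pairs of other genes were not counted in this way, so whether these counts are unusual was not tested. Nfkb1, Nfkb2, Rela, Nfkbib, Nfkbie and Tnfaip3 all had their lowest ratio in litter 3, while Rel and Relb had their highest there. The smallest p was that of Nfkb2 and Nfkbie (r = 0.98, exact permutation p = 0.00278; Spearman rho = 0.94, exact permutation p = 0.0167 and adjusted p = 0.25), and r was 0.88 without litters 3 and 6. For each pair, the 2 litters left out were those farthest from the median ratio of the gene named first. With 2 of 6 litters left out, such an r rests on few points. Nfkb1 and Tnfaip3 had r = 0.93 (exact permutation p = 0.025, adjusted p = 0.188; rho = 0.77, exact permutation p = 0.103 and adjusted p = 0.36) and r = 0.92 without litters 2 and 3. Of the other 7 pairs, Nfkbib and Nfkbie had r = 0.95 (exact permutation p = 0.00417, adjusted p = 0.0938) and 0.77 without litters 3 and 6, and Nfkb1 and Nfkbia had r = 0.79 and 0.65 without litters 2 and 3. The remaining 5 fell or turned. Without litters 3 and 6, r went from 0.96 to 0.39 for Nfkb2 and Nfkbib, from 0.96 to 0.45 for Rela and Nfkbib, from 0.94 to -0.64 for Nfkb2 and Rela and from 0.91 to -0.22 for Rela and Nfkbie, and without litters 2 and 5 it went from 0.81 to 0.28 for Nfkbia and Nfkbiz.

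As a description, genes averaging 5 TPM or more were ranked by how closely their log2 levels followed each of the 10 over the 12 libraries. These libraries share litters, so the step of litters 5 and 6 enters the first value, and r without litter 5 (10 libraries, litter 6 still among them) is given second. The third value is r of the within-litter ratios over the 6 litters, which is free of the step. Nfkb1 was followed by Cybb, the catalytic subunit of the phagocyte NADPH oxidase (r = 0.992, 0.960, 0.618), and Atf7 (0.992, 0.970, 0.907). Rel was followed by Tab2, an adaptor that brings the kinase TAK1 to IKK (0.989, 0.9753, 0.978), and Med13 (0.983, 0.967, 0.651). Tnfaip3 was followed by Fbxo38 (0.995, 0.976, 0.851) and Rab11fip1 (0.994, 0.973, 0.836). Rela was followed by Igf2r (0.978, 0.957, 0.860) and Zfp592 (0.976, 0.970, 0.848), and Nfkb2 by the adenosine receptor gene Adora2a (0.966, 0.912, 0.827) and Usp42 (0.966, 0.921, 0.872).

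Nfkbie was followed by Sh3bp4 (0.957, 0.967, 0.767) and Irf8, a transcription factor of the macrophage lineage (0.952, 0.947, 0.535). Nfkbiz was followed by Atxn3 (0.978, 0.952, 0.917) and Lancl2 (0.969, 0.910, 0.956). For the 3 genes that did not pass the litter test, Nfkbia was followed by Gmps (0.918, 0.881, 0.833) and Pon2 (0.893, 0.914, 0.914), Nfkbib by Zgpat (0.914, 0.911, 0.988) and Xab2 (0.850, 0.856, 0.947), and Relb by Rabggtb (0.832, 0.860, 0.9197) and Eif4g3 (0.778, 0.863, 0.845).

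By position in GENCODE M21 (GRCm38), Nfkb1 (ENSMUSG00000028163) lies at chr3:135584655-135691547, Nfkb2 (ENSMUSG00000025225) at chr19:46304320-46312385, Rel (ENSMUSG00000020275) at chr11:23736847-23770970, Rela (ENSMUSG00000024927) at chr19:5637483-5648130 and Relb (ENSMUSG00000002983) at chr7:19606217-19629438. Nfkbia (ENSMUSG00000021025) lies at chr12:55489410-55492647, Nfkbib (ENSMUSG00000030595) at chr7:28758251-28767512, Nfkbie (ENSMUSG00000023947) at chr17:45555703-45563169, Nfkbiz (ENSMUSG00000035356) at chr16:55811375-55838899 and Tnfaip3 (ENSMUSG00000019850) at chr10:19000910-19015657.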

How the data were processed

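RNA of 12 M1-activated BM-Mɸ cultures was sequenced as single-end reads of 75 bp. Per the submitters' processing notes and the study's methods, the authors used CASAVA, kallisto and sleuth with mm10 (versions are not given in the sources used here) and deposited TPM for 28808 principal transcripts, in 29213 lines of which 405 repeat a transcript. The deposited principal transcripts held 58.98% to 74.7% of all TPM of a library. The authors' columns of their own comparison (p, q, mean natural log of normalized counts, fold) were not used. TPM carry no depth per library, so the spread over litters gives the precision.

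The TPM of a gene's transcripts were added, and genes averaging 1 TPM or more were fitted as log2(TPM + 0.5) in limma 3.58.1 (lmFit, eBayes with trend) in R 4.3.3, with litter as a block, as the study adjusted for litter (and sex). Fold changes are on that scale. Adjusted p-values are Benjamini-Hochberg over all genes. Exact two-sided permutation used the 64 swaps of genotype within litters (smallest p 0.0312) or the 720 pairings of litters. Other steps used Python 3.11.15 (scipy 1.17.1, numpy 2.4.6, matplotlib 3.10.9, pandas 2.3.3). The fit was tested on simulated data. Littermates are paired by number, and after the mean of each gene was taken away their log2 values correlated by 0.273 to 0.774. The closest library of the other genotype was the littermate, except for ErbB4FF of litter 2, which was closest to ErbB4myeKO of litter 4. RefSeq promoter windows were matched by symbol.

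The 10 genes and all lists were chosen with earlier results of these data known. Named genes are the 10, up to 2 higher and 2 lower per pathway list with the smallest unadjusted p under 0.05, and the 2 closest genes to each of the 10. Any other gene was named after its values were seen or as a marker. The alternatives were no block, a Y-linked covariate, pseudocounts of 0.1 and 1, no filter or 5 TPM, median ratio scaling, no trend, the most abundant transcript alone, each litter left out and, for promoters, the stricter letters. The tests of litter, and of genotype within litters 1 to 4 and 5 and 6, were added after seeing the data.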

Additional observations from a re-analysis of the deposited data

Results flagged for a closer look

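Each group of 6 libraries and each set of 6 within-litter ratios of the 10 genes was tested for a single value far from the rest by Dixon's criterion, and 0 of 30 sets passed it. The low values of Nfkb1, Rel and Tnfaip3 in litter 5 did not pass, and litter 6 lay between litter 5 and the other litters for these genes.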

How the results depend on the processing

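Each of the 10 genes stayed above the adjusted p of 0.05 for genotype under every alternative run (smallest adjusted p = 0.529 among the planned ones, limma). The sign was kept in 158 of 170 values, and in all of them for Nfkb1, Nfkbie and Tnfaip3. Settings of block, filter and trend leave the mean ratio of a member as it is, so there the sign could not turn. The 12 values that turned came from leaving out litters, from a subset of litters or from the most abundant transcript alone. The log2 ratio turned to 0.019 for Nfkb2 with the most abundant transcript alone, to 0.080 for Nfkbia in litters 1 to 4 alone, and in litters 5 and 6 alone to -0.083 for Rel, -0.026 for Nfkbib and -0.30 for Nfkbiz. With each litter left out in turn, the log2 ratio ran from 0.080 to 0.22 for Nfkb1, from -0.071 to 0.068 for Nfkb2, from 0.0024 to 0.12 for Rel, from -0.00043 to 0.086 for Rela, from -0.14 to 0.064 for Relb, from -0.073 to 0.082 for Nfkbia, from -0.0067 to 0.18 for Nfkbib, from -0.094 to -0.0067 for Nfkbie, from -0.0047 to 0.22 for Nfkbiz and from 0.020 to 0.076 for Tnfaip3. Without litter 3 the ratio of Nfkbia was 0.030.

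Without the litter block, 75 genes in place of 721 had an unadjusted p under 0.05 and 0 an adjusted p under 0.05, and the pairing of littermates changed no call for the 10 genes. Leaving out a litter gave 413 to 864 genes at an unadjusted p under 0.05 and 0 to 1 at an adjusted p, the 1 without litter 3.

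The litter test passed 4 to 7 of the 10 genes and 11.5% to 46.5% of all genes with a litter left out, the lowest without litter 5 in both. It passed 2 (Nfkb1 and Tnfaip3) and 9.53% with the Y-linked level as a covariate, which nearly repeats the step between litters and so takes it away by construction, and 21.7% of all genes with no filter on low values. With the filter at 5 TPM it passed 7 of the 10 and 57% of the genes tested. Between litters 5 and 6, 3 genes passed in place of 5 with no filter, and 4 to 5 with a litter left out. For litters 5 and 6 against litters 1 to 4, 5 to 7 passed with a litter left out, the 5 without litter 5 being Nfkb1, Rel, Rela, Nfkbie and Tnfaip3. Of the genes with kappa-B letters, 2 in place of 5 had the stricter ones. What moved these counts was not tested.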
